A study of Mus musculus with 6 samples.

Results

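The genes described here are 31 markers and components of peripheral neurons: autonomic transcription factors, transmitter enzymes, receptors, cytoskeletal proteins and parts of the synaptic and secretory machinery. They were looked up in an array study of wild-type mouse embryos of the FVB/N strain, taken at embryonic day 13 (Theiler stage 21). From bladder neck and urethra the surrounding mesenchyme (arrays 1, 2 and 3) had been parted from the epithelium, labelled urothelium (arrays 1, 2 and 5). Both layers had been exposed to trypsin and teased apart with a needle, and their RNA was amplified in 2 rounds before hybridisation. Samples were not pooled and the sex of the embryos is unknown, per the labels, whose texts give differing accounts of where the cut lay relative to the ureters. Each gene is represented by its brightest probe set among those annotated to that gene alone. All 31 genes, of 18193 with such a probe set, were found on the array, and 30 of them, of 13717, passed the filter on low signal (a mean over the 6 arrays above the 40th percentile of probe sets).

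Pelvic ganglia hold autonomic neurons that innervate the bladder, urethra and genital organs. They arise from neural crest cells that settle in the mesenchyme beside the urogenital tract, so they lie outside the epithelium. Homeodomain and Gata factors are known to set the autonomic identity of such neurons, tyrosine hydroxylase and dopamine beta-hydroxylase make noradrenaline, nicotinic receptors receive the preganglionic input, and stathmins, neurofilaments, peripherin and SNARE proteins serve axon growth and transmitter release in neurons of many kinds.

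Most of these genes were higher in mesenchyme than in urothelium. With all 6 arrays, 18 of the 30 tested genes passed an adjusted p of 0.05 in limma and were higher in mesenchyme, where 4.03% of all 13717 tested genes were. None was lower in mesenchyme, also at an unadjusted p under 0.05, against 1.95% of all tested genes (5.98% in either direction). The largest differences by brightest probe set were those of Rgs4, Stmn2, Stmn3, Snap25, Prph and Rab6b, 61.2-fold to 246-fold on the log2(signal + 16) scale. Of these, Rgs4, Snap25, Prph and Rab6b had a urothelial mean below the filter, so their folds are set against dim signal and depend on the offset. The order also depends on how probe sets are combined. Averaged over each gene's sets above the filter, Rgs4 (4.37), Stmn2 (4.601), Stmn3 (4.45), Rab6b (4.72) and Prph (3.41) lay below Gap43 (5.08) and Scg3 (5.01) on the log2 scale. Over the 30 genes the median log2 difference, mesenchyme minus urothelium on the log2(signal + 16) scale, was 3.65, and that of all tested genes was -0.12. Phox2a, Gata2, Dbh, Th, Cartpt, Chrna3, Chrnb4, Tubb3, Mapt, Ina, Uchl1 and Syt1 did not pass, and Scg2 was not tested because of its low signal. Some of the genes were already known to have large differences on these arrays when the set was put together, so its count and median describe it and are not independent evidence.

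Mesenchyme 1 stood apart from mesenchyme 2 and 3, so results are given with and without it. Over all tested genes mesenchyme 1 correlated with mesenchyme 2 and 3 at r = 0.784 and 0.755, and mesenchyme 2 with mesenchyme 3 at 0.981, across genes, which are not independent replicates. Over 10 markers of liver, lung, heart, pancreas and skin, a list whose values on this array were already known, the summed normalized signal was 295302 on mesenchyme 1, 1067 and 1139 on mesenchyme 2 and 3 and 469 to 1396 on the urothelial arrays. Hoxd13, a factor of the caudal body, gave 504 on that array, whereas the other 5 arrays lay between 31870.5 and 42462.5. Whether mesenchyme 1 holds the tissue of its label is therefore in doubt, and every mean, fold and call over 3 mesenchymal arrays includes it. Array medians of the deposited signal lay between 126 and 254. Without mesenchyme 1, 25 of 30 genes passed, all higher in mesenchyme, against 8.17% of 13587 genes higher and 6.37% lower, and the median was 3.59 against -0.02 for all genes. Leaving out each of the other arrays gave 11 (urothelium 1), 12 (mesenchyme 2), 13 (urothelium 5), 14 (mesenchyme 3) and 16 (urothelium 2) genes past the threshold. The labels do not tie arrays to separate embryos, so p-values here measure only the spread between these samples, which may be technical, and 3 arrays a layer limit the precision. In tissue samples such as these, fewer neurons and less RNA per neuron cannot be told apart.

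Of the 30 genes, 12 had a urothelial mean below the filter and so met it through their mesenchymal signal. Of these 12, 8 passed the test, against 121 of all 785 tested genes with a urothelial mean below the filter. Of the other 18 genes, 10 passed, against 3.34% of 12932 such genes higher in mesenchyme. With no filter, 18 of all 31 passed with all arrays (2.75% of 18193 genes higher) and 26 without mesenchyme 1 (5.93%), with medians of 3.49 and 3.46. The 3 mesenchymal arrays all lay above the 3 urothelial ones for 26 of the 31 genes, against 11.7% of all genes, and mesenchyme 2 and 3 did so for 28, against 19.8%. The layers overlapped for Phox2a, Gata2, Dbh, Th and Uchl1, and without mesenchyme 1 for Gata2, Th and Uchl1.

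**Figure D1:**
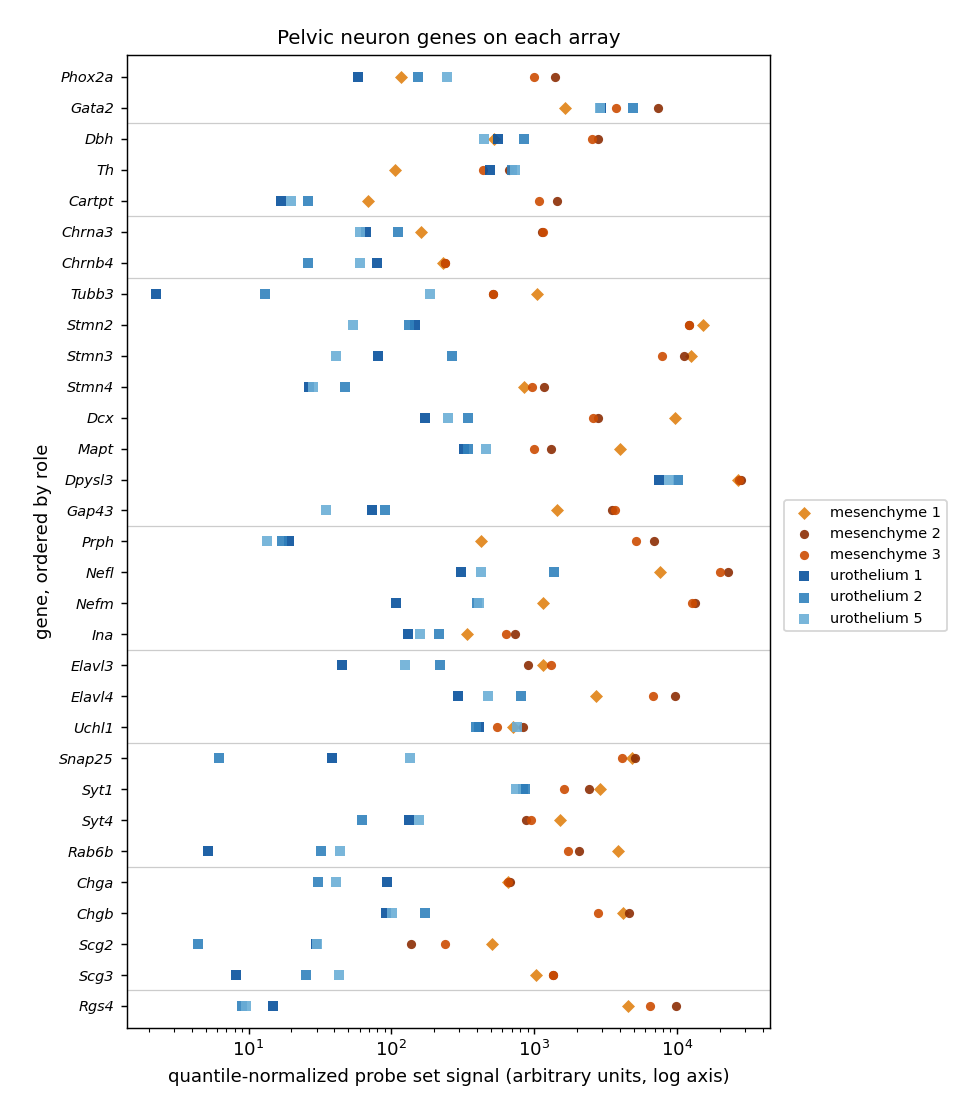
Quantile-normalized signal of the 31 neuron genes on each array (log axis, arbitrary units), with genes ordered by role and grey lines between roles. Mesenchymal arrays (orange diamond for mesenchyme 1, brown circles for mesenchyme 2 and 3) lie right of the urothelial arrays (blue squares) for 26 of the 31 genes, and the mesenchyme 1 diamond lies near the urothelial squares for Phox2a, Dbh, Cartpt and Chrna3. Signals of different genes come from different probe sets and are not comparable in level.

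Of the 2 autonomic transcription factors, neither passed with all arrays, also at an unadjusted p, and Phox2a passed without mesenchyme 1. Phox2a, a homeodomain factor required for noradrenergic differentiation, read 117, 1408 and 994 normalized signal units on mesenchyme 1, 2 and 3 and 58.8, 153 and 245 on urothelium 1, 2 and 5. Mesenchyme 1 thus lay among the urothelial arrays, while mesenchyme 2 and 3 lay above all of them. The difference was 1.95 ± 0.948 (SE, n = 3 arrays per layer, adjusted p = 0.316) on the log2 scale, and 3.08 ± 0.552 (adjusted p = 0.0104), or 8.46-fold, without mesenchyme 1. Gata2, a zinc finger factor of sympathetic neurons and of several other lineages, read 1655, 7378 and 3721 in mesenchyme and 2939, 4942 and 2909 in urothelium. Its layers overlapped with and without mesenchyme 1, and its difference was 0.04 ± 0.55 (adjusted p = 0.976), or 0.59 (adjusted p = 0.404) without mesenchyme 1, with the sign turned at -0.082 when arrays were centred on their medians and at -0.49 without mesenchyme 2.

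Of the transmitter genes, none passed with all arrays, 1 of 3 had an unadjusted p under 0.05, and Dbh and Cartpt passed without mesenchyme 1. Dbh, which converts dopamine to noradrenaline, read 520.1, 2796 and 2530.1 in mesenchyme and 558, 845 and 449 in urothelium. Its difference was 1.35 ± 0.669 (adjusted p = 0.324), and 2.19 ± 0.332 (4.55-fold, adjusted p = 0.00549) without mesenchyme 1, which again lay among the urothelial arrays. The probe set used for Dbh is of a kind that can match several transcripts, and the others of the gene had differences of 2.29 and 1.00. Th, tyrosine hydroxylase, the rate-limiting enzyme of catecholamine synthesis, read 106, 668 and 437 in mesenchyme and 491, 703 and 738 in urothelium, and the layers overlapped. Its layer difference was negative (-0.95 ± 0.651, adjusted p = 0.467, and -0.23, adjusted p = 0.736, without mesenchyme 1) and passed in neither fit. Cartpt, the precursor of the CART peptide found in subsets of autonomic neurons, read 68.5, 1453 and 1085 in mesenchyme and 16.9, 25.9 and 19.9 in urothelium. All mesenchymal arrays lay above the urothelial ones, mesenchyme 1 by the least, with a difference of 3.81 ± 1.06 (adjusted p = 0.0918) and of 5.17 ± 0.425 (36.0-fold, adjusted p = 0.000920) without mesenchyme 1.

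Promoters are shown for Th and Dbh, which serve 1 pathway, for Cartpt, Chgb and Scg2, which hold the same motif as Th, and for Prph, as an example with a TATA box. The motif is the cyclic AMP response element (CRE, searched as TGACGTCA, a palindrome), a known feature of several transmitter and granin genes. RefSeq promoter windows of build GRCm38.p6, from 250 bases before to 50 after the start, were at hand for 22 of the 31 genes. The CRE letters occurred in 4 of these 22 (Th, Cartpt, Chgb and Scg2) and in 2.03% of 27025 genes. The letters TATAAA were in 5 of 22 (Chga, Dcx, Elavl3, Prph and Rgs4) and in 15.7% of all genes on either strand. Of the neuron-restrictive silencer element, the left part TTCAGCACC was in 1 of 22 (Scg2) and 0.433% of genes, and the right part GGACAGC in 3 of 22 (Cartpt, Scg2 and Tubb3) and 7.59%, both strands searched. The CRE and TATA searches were added after the values had been seen, and a match is a description and not a site. The last 120 bases before each start are given 5' to 3', with matches in capitals: the CRE in Th, Cartpt, Chgb and Scg2, in Scg2 also the right silencer part on the other strand (its left part runs past the start), and TATAAA in Prph.
Th (chr7:142899996-142900115, minus strand): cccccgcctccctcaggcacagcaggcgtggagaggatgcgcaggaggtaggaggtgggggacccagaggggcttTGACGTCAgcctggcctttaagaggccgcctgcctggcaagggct
Dbh (chr2:27165387-27165506, plus strand): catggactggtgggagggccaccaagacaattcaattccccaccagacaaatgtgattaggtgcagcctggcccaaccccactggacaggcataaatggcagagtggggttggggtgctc
Cartpt (chr13:99900684-99900803, minus strand): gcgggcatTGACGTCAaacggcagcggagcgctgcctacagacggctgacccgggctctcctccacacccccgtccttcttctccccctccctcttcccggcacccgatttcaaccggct
Chgb (chr2:132781522-132781641, plus strand): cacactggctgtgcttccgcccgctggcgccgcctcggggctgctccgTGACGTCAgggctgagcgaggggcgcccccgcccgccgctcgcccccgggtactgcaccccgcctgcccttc
Scg2 (chr1:79440027-79440146, minus strand): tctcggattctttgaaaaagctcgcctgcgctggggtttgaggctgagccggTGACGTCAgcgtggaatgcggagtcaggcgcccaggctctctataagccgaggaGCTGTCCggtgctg
Prph (chr15:99055054-99055173, plus strand): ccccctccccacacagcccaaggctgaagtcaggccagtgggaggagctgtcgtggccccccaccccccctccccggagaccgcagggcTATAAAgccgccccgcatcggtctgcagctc

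The Th and Dbh windows above differ in these letters, with the CRE starting 45 bases before the start of Th and none of the searched motifs in the 120 bases of Dbh shown. Among the 4 genes with the CRE letters, Chgb was higher in mesenchyme, Cartpt was so without mesenchyme 1, Scg2 passed only with no filter, and Th did not differ past the threshold.

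By brightest probe set, both subunits of the ganglionic nicotinic receptor lay higher on all mesenchymal arrays, without passing adjusted p 0.05 when all 6 were used. Chrna3, the alpha 3 subunit, read 160.3, 1136 and 1161 in mesenchyme and 66.8, 112 and 60.7 in urothelium. The difference was 2.73 ± 0.784 (adjusted p = 0.1003), and 3.71 ± 0.384 (13.1-fold, adjusted p = 0.00156) without mesenchyme 1, and another probe set of the gene gave 4.31 (adjusted p = 0.102 over all probe sets). Chrnb4, the beta 4 subunit, which lies beside Chrna3 in a gene cluster and pairs with it in ganglia, read 229, 237 and 237 in mesenchyme and 79.5, 26.1 and 60.7 in urothelium. It was level across the mesenchymal arrays, and its difference of 1.89 ± 0.499 passed neither with all arrays (adjusted p = 0.0779) nor without mesenchyme 1 (adjusted p = 0.0648). The other Chrnb4 probe set, dim and untested, had the opposite sign (-0.31). Both subunits had an unadjusted p under 0.05. The companion subunits Chrna4, Chrna5, Chrna7 and Chrnb2 did not pass limma's threshold in either fit (5 listed, 4 tested). Chrna5 had an unadjusted p under 0.05 with all arrays (1.55). Chrna7 went the other way (-1.55, adjusted p = 0.289), with every mesenchymal array below every urothelial one. The differences of Chrna4 and Chrnb2 were 1.21 and -0.47.

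Of the 8 microtubule and growth cone genes, 6 were higher in mesenchyme with all arrays and 7 without mesenchyme 1, with Stmn2 and Stmn3 among the largest differences. Against the mean of mesenchyme 2 and 3, mesenchyme 1 was more than 2-fold lower for 1 of the 8 (20.3% of all genes). It was more than 2-fold higher for 3 (17.9%). Stmn2, a stathmin that destabilises microtubules in growing axons, read 15303, 12081 and 12210.0 in mesenchyme and 147, 133 and 53.6 in urothelium. The 110.3-fold difference (6.79 ± 0.407, adjusted p = 0.00210) was 110.0-fold without mesenchyme 1 (adjusted p = 0.000607), and the gene's other probe set gave 2.42 (adjusted p = 0.127 over all probe sets). Stmn3, its relative, read 12559, 11265 and 7829 in mesenchyme and 81.3, 268 and 40.8 in urothelium, an 89.2-fold difference (adjusted p = 0.00390) on a cross-matching probe set and 2.43 on the log2 scale on the other (adjusted p = 0.0439 over all probe sets). Stmn4, the third neuronal stathmin here, read 849, 1182 and 964 in mesenchyme and 26.4, 47.6 and 28.3 in urothelium, 20.4-fold higher in mesenchyme (adjusted p = 0.00390). For all 3 stathmins mesenchyme 1 was within 0.42 log2 units of the mean of mesenchyme 2 and 3.

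Gap43, a growth cone membrane protein, read 1440.0, 3514 and 3685 in mesenchyme and 73.8, 91.0 and 34.8 in urothelium (33.9-fold, adjusted p = 0.00427). Dcx, doublecortin, a microtubule protein of migrating and young neurons, read 9756, 2802 and 2603 in mesenchyme and 171, 347 and 250.1 in urothelium (15.9-fold, adjusted p = 0.0110). Here mesenchyme 1 was the highest array. Mapt, the axonal microtubule protein tau, showed the same order, with 4023, 1323 and 996 in mesenchyme and 322, 342 and 458 in urothelium, and passed without mesenchyme 1 (1.65 ± 0.307, adjusted p = 0.0122) but not with it (2.19 ± 0.548, adjusted p = 0.0663). A second Mapt probe set passed with all arrays (3.39, adjusted p = 0.0233 over all probe sets), and a pair of dim untested ones gave -0.41 and 0.69. Tubb3, the neuronal beta tubulin, read 1049.5, 518 and 512 in mesenchyme and 2.25, 13.0 and 187 in urothelium. Its groups did not overlap, yet urothelium 5 lay far above the other urothelial arrays and the difference of 3.82 ± 0.916 missed the threshold (adjusted p = 0.0582, and 0.0616 without mesenchyme 1). Without urothelium 5 it passed (4.92, adjusted p = 0.0261). Dpysl3, a collapsin response mediator also made by non-neuronal embryonic cells, was high in both layers, with 26907, 28129 and 27453 in mesenchyme and 7529, 10202 and 8779 in urothelium. It had the smallest difference among the genes called (3.13-fold, 1.65 ± 0.181, adjusted p = 0.00498), and its other probe sets gave 0.60 and 0.77 without passing, the call ending with median centring or with the mean of probe sets. Dcx missed the threshold without urothelium 1 (adjusted p = 0.0712) or urothelium 5 (0.0609).

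Among the intermediate filament genes, 3 of 4 passed with all arrays and all 4 without mesenchyme 1. Prph, peripherin, the filament protein of peripheral neurons, read 426, 6912 and 5212 in mesenchyme and 19.2, 17.2 and 13.4 in urothelium. Mesenchyme 1 lay well above the urothelial arrays and well below the other mesenchymal ones. The difference was 77.5-fold (6.28 ± 1.00, adjusted p = 0.0150) and 195-fold without mesenchyme 1 (adjusted p = 0.000607). Leaving out any other array ended the call (adjusted p = 0.0528 to 0.0821, with a fold of 45.7 without mesenchyme 2). The gene's 3 dimmer probe sets had differences of 0.12 to 0.54, and the mean of its sets above the filter was 3.41. Nefl, the light neurofilament chain, read 7645, 22661 and 20148 in mesenchyme and 309.7, 1371 and 428 in urothelium, 25.96-fold higher in mesenchyme (adjusted p = 0.00994), and a second probe set gave 5.10. Nefl missed the threshold without urothelium 1 (adjusted p = 0.0557) or urothelium 5 (0.0590).

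Nefm, the medium chain, read 1164, 13320.0 and 12752 in mesenchyme and 109, 398 and 411 in urothelium. It followed Prph in having mesenchyme 1 between the layers. The call was marginal with all arrays (20.9-fold, adjusted p = 0.0494), ended when any array other than mesenchyme 1 was left out (adjusted p = 0.118 to 0.195, with a fold of 13.7 without mesenchyme 2) or when no filter was used (0.0612), and became 49.7-fold without mesenchyme 1 (adjusted p = 0.00130). Ina, alpha-internexin, a filament protein of developing neurons, read 340.5, 732 and 631 in mesenchyme and 132, 215 and 159 in urothelium. It passed without mesenchyme 1 (1.98 ± 0.352, adjusted p = 0.0101) and not with it (1.62 ± 0.440, adjusted p = 0.0851).

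Of the RNA-binding Elavl proteins, which stabilise neuronal transcripts, both were higher in mesenchyme. Elavl3 read 1150.0, 913 and 1306 in mesenchyme and 45.5, 221 and 124 in urothelium (8.89-fold, adjusted p = 0.0193), and its dim untested probe sets gave 0.03 and 0.50. Elavl4 read 2720.1, 9667 and 6781 in mesenchyme and 296, 810.3 and 476 in urothelium (11.2-fold, adjusted p = 0.0159, and 17.1-fold, adjusted p = 0.00177, without mesenchyme 1). Both genes missed the threshold when mesenchyme 2, mesenchyme 3, urothelium 1 or urothelium 5 was left out, with adjusted p of 0.0705 to 0.0770 for Elavl3 and of 0.0569 to 0.0858 for Elavl4. Uchl1, a ubiquitin hydrolase abundant in neurons and known also from other embryonic cells, read 714, 829.8 and 548 in mesenchyme and 413, 390.2 and 764 in urothelium. Its layers overlapped and its difference was 0.45 ± 0.396 (adjusted p = 0.574), with a similar value without mesenchyme 1 (0.44, adjusted p = 0.564).

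**Figure D2:**
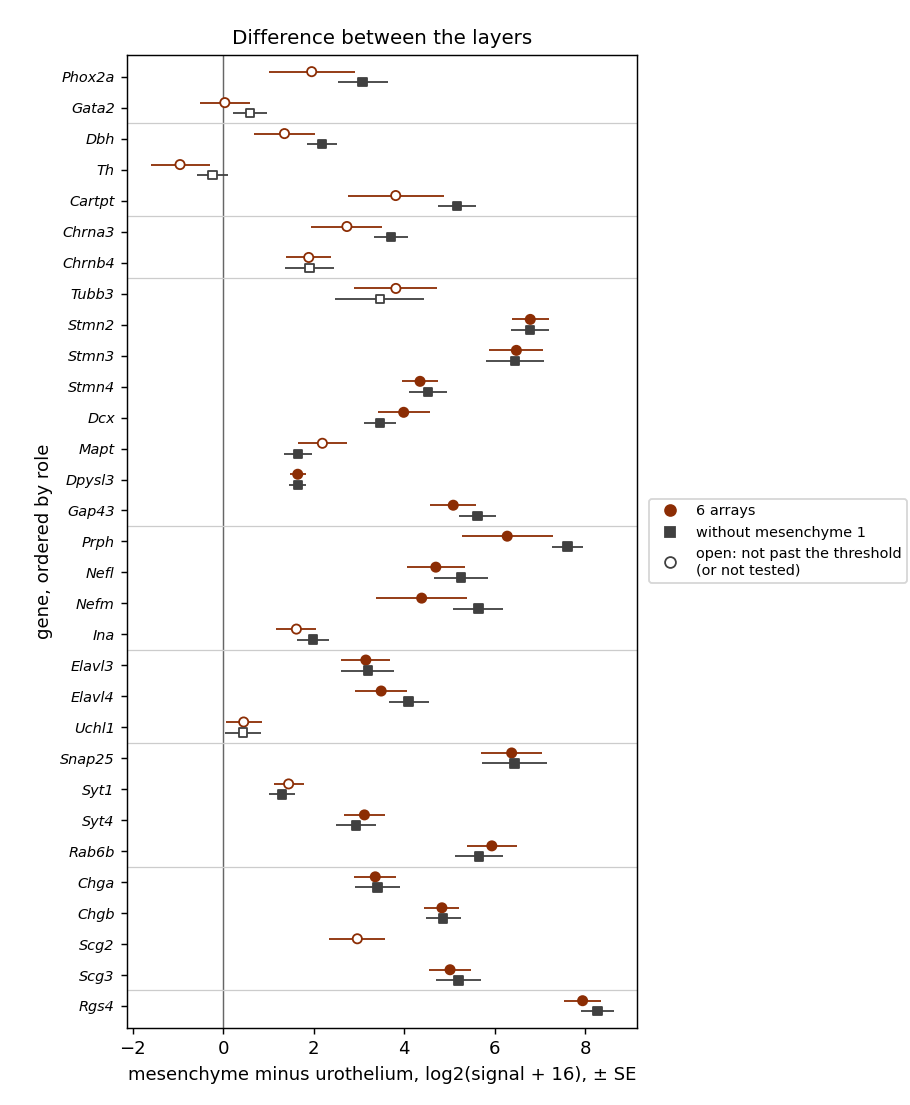
Log2 difference, mesenchyme minus urothelium, of each neuron gene with its standard error, for all 6 arrays (brown circles) and without mesenchyme 1 (dark squares). Filled symbols passed adjusted p 0.05 in limma and open ones did not, and Scg2, which was under the filter, is drawn open from the fit without a filter. Stmn2, Stmn3, Snap25, Chga, Chgb and Scg3 have nearly the same value in both fits, while Phox2a, Dbh, Cartpt, Chrna3, Prph and Nefm lie further right without mesenchyme 1.

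Synaptic and vesicle genes were higher in mesenchyme in 3 of 4 cases with all arrays and in all 4 without mesenchyme 1. Snap25, a SNARE protein of the presynaptic membrane, read 4837, 5091 and 4153 in mesenchyme and 38.3, 6.24 and 134 in urothelium. The mesenchymal arrays lay close together, and the 82.9-fold difference (6.37 ± 0.669, adjusted p = 0.00455) was 86.4-fold without mesenchyme 1 and ranged from 48.4-fold without urothelium 2 to 140.1-fold without urothelium 5. The other Snap25 probe set, dim and untested, gave 2.21 on the log2 scale. Rab6b, a Rab GTPase of neuronal Golgi traffic, read 3874, 2054 and 1728 in mesenchyme and 5.17, 32.4 and 43.8 in urothelium (61.2-fold, adjusted p = 0.00390). Other Rab6b probe sets gave 0.05 and 0.53, both untested, and 3.51 (adjusted p = 0.0198 over all probe sets). The mean of the gene's sets above the filter was 4.72. Syt4, a synaptotagmin of dense-core vesicles, read 1518, 884 and 947 in mesenchyme and 133, 62.8 and 156 in urothelium (8.70-fold, adjusted p = 0.0113), and missed the threshold without mesenchyme 2 (adjusted p = 0.0541) or urothelium 1 (0.0653). Syt1, the calcium sensor of fast release, had a smaller difference and sizeable signal in both layers. It read 2916, 2426 and 1624 in mesenchyme and 839, 869 and 752 in urothelium, with adjusted p = 0.0502 for all arrays (1.45 ± 0.331) and 0.0229 without mesenchyme 1 (1.30). A dimmer Syt1 probe set had the opposite sign (-0.78, adjusted p = 0.535 over all probe sets).

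The granins, acidic proteins of dense-core secretory granules in neurons and endocrine cells, were all higher on each mesenchymal array than on any urothelial one. Chgb read 4205, 4646 and 2795 in mesenchyme and 91.5, 173 and 102 in urothelium (28.5-fold, adjusted p = 0.00358). Scg3 read 1033, 1366 and 1347 in mesenchyme and 8.22, 25.2 and 42.9 in urothelium (32.3-fold, adjusted p = 0.00390). Chga read 657, 683 and 657 in mesenchyme and 93.8, 30.7 and 41.0 in urothelium (10.3-fold, adjusted p = 0.00998), and missed the threshold without mesenchyme 2 (adjusted p = 0.0618). For these 3 granins mesenchyme 1 lay within 0.39 log2 units of the mean of mesenchyme 2 and 3. Scg2 was dim, with 511, 137 and 237 in mesenchyme and 29.6, 4.40 and 30.2 in urothelium. It was under the filter, and with no filter its difference was 2.96 ± 0.622 (adjusted p = 0.0479).

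Rgs4, which accelerates GTP hydrolysis by G-alpha subunits, had the largest difference of the set by brightest probe set. It read 4534, 9852 and 6499.6 in mesenchyme and 14.9, 8.96 and 9.56 in urothelium. The difference was 246-fold (7.94 ± 0.406, adjusted p = 0.00146) and 309-fold without mesenchyme 1 (adjusted p = 0.000607). Its urothelial signals lay below the offset of 16, so the size is not firm: the log2 difference was 9.15 with an offset of 1 and 6.47 with an offset of 64. Its dimmer probe sets gave 2.47 and 2.69 (adjusted p = 0.156 and 0.0409 over all probe sets), and the mean of all sets 4.37. Rgs4 and Rab6b were among the largest differences already known from these arrays.

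The neuron genes did not share 1 pattern on mesenchyme 1. On that array 11 of the 31 were more than 2-fold below the mean of mesenchyme 2 and 3, where 20.3% of all genes were, and 5 were more than 2-fold above it, where 17.9% were. The 11 were Phox2a, Gata2, Dbh, Th, Cartpt, Chrna3, Gap43, Prph, Nefl, Nefm and Elavl4, which include both autonomic factors and all 3 transmitter genes. The lowest were Cartpt (-3.91 log2), Prph (-3.77), Nefm (-3.47) and Phox2a (-3.17). The 5 were Dcx (1.85), Mapt (1.80), Scg2 (1.42), Rab6b (1.03) and Tubb3 (1.00). The remaining 15 lay within 2-fold, among them the stathmins, Snap25, Chga, Chgb and Scg3, and the median over the 31 was -0.05, against -0.16 over all genes. With 1 array on this side these are values with no test.

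**Figure D3:**
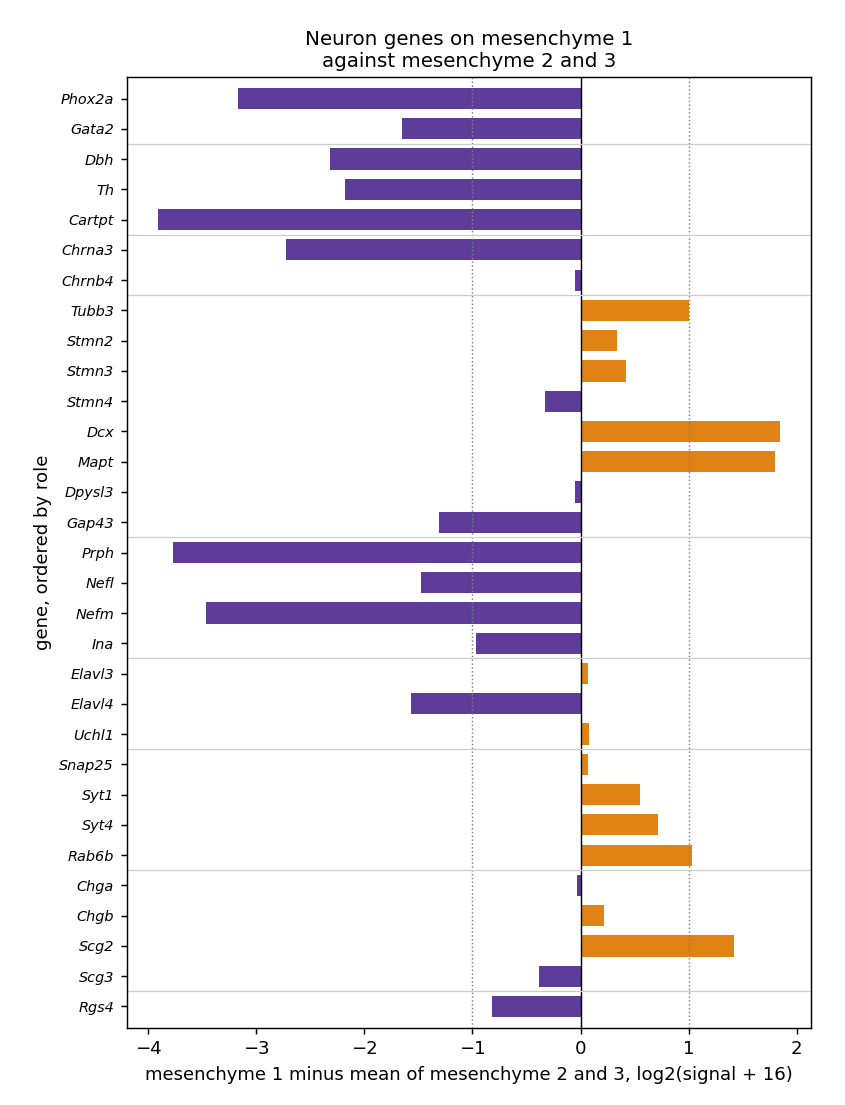
Log2 difference of mesenchyme 1 from the mean of mesenchyme 2 and 3 for each neuron gene, with bars from 0 (purple below, orange above) and dotted lines at 2-fold. Autonomic factors, transmitter genes, Chrna3 and 3 of the 4 filament genes extend past the lower line, while Dcx, Mapt, Scg2, Rab6b and Tubb3 extend past the upper one.

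Markers of other neurons and of body level also set mesenchyme 1 apart from mesenchyme 2 and 3, and their part in the values of the neuron genes was not tested. Of 8 sensory neuron markers, the summed signal was 4556 on mesenchyme 1, 459 and 484 on mesenchyme 2 and 3 and 460 to 556 on the urothelial arrays, and 0 of 2 tested passed, also at an unadjusted p. For Slc17a6, a vesicular glutamate transporter of sensory and central neurons, mesenchyme 1 gave 2609.6, the other mesenchymal arrays 10.6 and 61.9, and the urothelial arrays 17.4 to 160.3. Of the 8 sensory markers, 4 were more than 2-fold higher on mesenchyme 1 than the mean of mesenchyme 2 and 3, against 17.9% of all genes. Pou4f1, a sensory transcription factor, was lower there (63.9, against 158 and 157). The sum over 12 central neuron markers was 5451 on mesenchyme 1, 1728 and 1600 on mesenchyme 2 and 3 and 1550 to 2099 on the urothelial arrays, with 0 of 7 tested passing, also at an unadjusted p. Neurod6, a factor of cortical neurons, had 1369 on mesenchyme 1, against 15.1 and 1.66 on the other mesenchymal arrays and 5.38 at most in urothelium. On mesenchyme 2 and 3 the central sum lay within the urothelial range, and the sensory sum within or just below it. Caudal body factors were low on mesenchyme 1: their sum was 928 there, 35965 and 37357 on the other mesenchymal arrays and 33761 to 43388 in urothelium. Most of the sum was Hoxd13, given above (33373.5 and 34724.6 on mesenchyme 2 and 3). Of the 5 factors, 4 were more than 2-fold lower on mesenchyme 1 than the mean of mesenchyme 2 and 3, against 20.3% of all genes. Adrenal and islet endocrine markers, which could share the granins, summed to 2089 on mesenchyme 1, 1142 and 1158 on mesenchyme 2 and 3 and 1005 to 1539 in urothelium, with 0 of 3 tested passing, also at an unadjusted p.

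**Figure D4:**
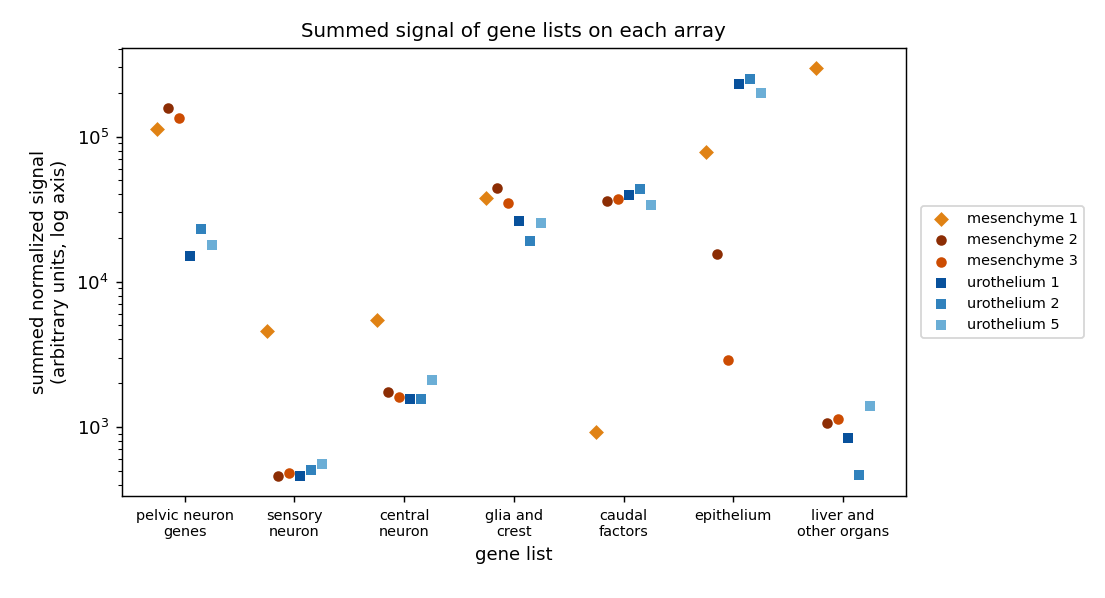
Summed quantile-normalized signal (log axis) of 7 gene lists on each array, mesenchyme left of urothelium within a list. The neuron genes are high on all 3 mesenchymal arrays, sensory, central and organ markers are high on mesenchyme 1, and caudal factors are low there (928 against 33761 to 43388 on the other arrays). Most of the caudal sum is Hoxd13.

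Glial and neural crest genes, whose cells accompany ganglion neurons, moved partly with them. Of 10 listed, 7 were tested and 3 were higher in mesenchyme, with and without mesenchyme 1. Over all tested genes 4.03% and 8.17% were higher in these fits. Without mesenchyme 1, Erbb3 was lower in mesenchyme, against 6.37% of all tested genes. Fabp7, a fatty acid binding protein of glial progenitors, read 4981, 2121 and 1265 in mesenchyme and 99.7, 11.7 and 92.1 in urothelium (5.09 log2, adjusted p = 0.0110), and Ednrb, the endothelin receptor of crest cells, differed by 3.85 (adjusted p = 0.00265). S100b, a glial calcium-binding protein, differed by 2.89 (adjusted p = 0.0288). Sox10, the defining factor of peripheral glia, read 199, 194 and 169.9 in mesenchyme and 257, 257 and 134 in urothelium (-0.14, adjusted p = 0.886). Of the 8 listed genes found, 5 had every mesenchymal array above all urothelial ones, against 11.7% of all genes. In 1 gene the mesenchymal arrays all lay below, and in 2 the layers overlapped. The list's summed signal was 34816 to 44269 in mesenchyme and 19184 to 26328 in urothelium. Most of it was Ednrb in mesenchyme (19566 to 30532) and Erbb3 in urothelium (16817 to 24263), so the sum says little about the other genes. None of the list's genes was at 0, and the list's part in the neuron genes was not tested. Epithelial markers summed to 78394.5, 15493 and 2905 on mesenchyme 1, 2 and 3 and to 199148 to 248243 in urothelium. Mesenchymal markers summed to 147875 to 208924 in mesenchyme and 23092 to 41197 in urothelium. On mesenchyme 1, which also held markers of other organs, the epithelial sum cannot be assigned to urothelium. Epcam read 20604 there and Foxa1 3360, against urothelial means of 37074 and 37481. The part of carry-over between the layers in the neuron genes was not tested.

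Further neuron genes, 78 of them listed in 6 groups beside the 31, were in part higher in mesenchyme. Of these, 72 were found and 64 tested, of which 19 were higher and 2 lower in mesenchyme with all arrays, and 30 were higher and 3 lower without mesenchyme 1 (7 to 15 higher without one of the other arrays). Over all tested genes 4.03% were higher and 1.95% lower with all arrays, and 8.17% and 6.37% without mesenchyme 1. The median was 1.26 with all arrays and 1.35 without mesenchyme 1. Of 8 further autonomic factors found, none was higher and Gata3, a factor of sympathetic neurons and also of urothelium, was lower in mesenchyme (-2.45, adjusted p = 0.0249), with Hand2 and Insm1 higher at an unadjusted p under 0.05. Hand2, a bHLH factor needed for noradrenergic neurons and also made by mesenchyme, read 1011, 12687 and 11014 in mesenchyme and 404, 424 and 582 in urothelium. As with Phox2a, mesenchyme 1 was low, and the difference passed without it (4.71, adjusted p = 0.000607) but not with it (3.45, adjusted p = 0.0805). Insm1, a zinc finger factor of neuroendocrine precursors, likewise passed without mesenchyme 1 (2.55, adjusted p = 0.0420) and not with it (2.36, adjusted p = 0.0703). Hand1, Isl1, Sox4, Sox11 and Tfap2b passed in neither fit.

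Of 13 further transmitter and peptide genes tested, 3 were higher and 1 lower in mesenchyme with all arrays, and 7 and 1 without mesenchyme 1. Vip, the vasoactive intestinal peptide of cholinergic pelvic neurons, read 795, 4471 and 4898 in mesenchyme and 112, 143 and 30.3 in urothelium (4.74, adjusted p = 0.0188). Ddc, the decarboxylase that follows Th in catecholamine synthesis, read 7202, 7559.6 and 5438 in mesenchyme and 501, 776 and 780.3 in urothelium, a difference of 3.28 (adjusted p = 0.00394). So Ddc was higher in mesenchyme on every array, unlike Th. The vesicular monoamine transporter Slc18a2 was higher as well (3.40, adjusted p = 0.0309), and Cyb561, a cytochrome of chromaffin granules found also outside neurons, was lower (-1.65, adjusted p = 0.0298). Gch1, which makes the cofactor of Th, passed without mesenchyme 1 (2.09, adjusted p = 0.00439), as did Slc18a1, Gal and Sst, while Slc6a2, Slc5a7, Npy, Nos1 and Maoa passed in neither fit. The cholinergic genes Chat and Slc18a3 and the esterase Ache were under the filter, and Slc18a3 read 8.95, 348 and 222 in mesenchyme and 27.1, 36.7 and 12.9 in urothelium.

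The remaining groups were lists of cytoskeletal, synaptic and secretory, and RNA-binding and adhesion genes. Of 15 cytoskeletal and growth cone genes tested, 8 were higher in mesenchyme with all arrays and 10 without mesenchyme 1. They were led by the axonal kinesin Kif5a (4.64, adjusted p = 0.00390) and by Dclk1, a doublecortin-like kinase (3.999, adjusted p = 0.0156). Crmp1 (3.16) and the kinesin Kif5c (3.08) followed. Map1b, of the same list, was lower on every mesenchymal array than on any urothelial one, without passing (-1.29, adjusted p = 0.143). Of 14 synaptic and secretory genes tested, 5 were higher and 7 without mesenchyme 1, among them the complexin Cplx1 (4.12, adjusted p = 0.00599) and the synapsin Syn2 (3.85, adjusted p = 0.00711), with Scg5 (3.12) and Cadps (2.95). Of 10 RNA-binding and adhesion genes, 3 were higher, namely Cntn1 (3.98, adjusted p = 0.00358), Ncam1 (3.23, adjusted p = 0.00358) and Elavl2 (2.36, adjusted p = 0.0231). Without mesenchyme 1 the count was 4 higher and 1 lower, the lower gene being Chl1 (-1.45, adjusted p = 0.0113).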

How the data were processed

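Gene expression was measured on an Affymetrix whole-genome mouse array in 3 mesenchymal and 3 urothelial samples. The authors deposited 1 probe set intensity per array on a linear scale, processed with GCOS per the submitters' processing notes, with version and settings not given in the sources used here. Trimmed of 2% of probe sets at either end, every array averaged 1500, a common scaling. The deposited values hold no detection calls, so dim probe sets have no bound. The size of their differences on the log2(signal + 16) scale depends on the offset.

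Of 45101 probe sets, 64 controls were left out, 34945 name 1 gene by the platform annotation, 932 several and 9160 none here. By gene ID, 34741 matched RefSeq (GRCm38.p6), which changed 0 symbols. The log2(signal + 16) values were quantile normalized. Each gene was read from its probe set of highest mean, kept above the 40th percentile of mean log2 value, and fitted with limma 3.58.1 in R 4.3.3 (lmFit, eBayes with intensity trend, no covariate, Benjamini-Hochberg over all tested genes, threshold 0.05). Printed signals are normalized values with the offset removed. The fit was tested on simulated data.

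All 31 members are named, with up to 4 genes past the threshold per further list and any gene of the autonomic and transmitter lists. Neurod6, Slc17a6, Hoxd13, Sox10, Erbb3 and the members' promoters shown were chosen after their values were seen. Members and lists were chosen with earlier results of these data known. The alternatives were other offsets, normalizations, filters, probe set rules and variance models, array weights, leaving out each array, and a replicate block.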

Additional observations from a re-analysis of the deposited data

How the results depend on the processing

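Signs of the 30 tested genes held under every alternative except for Gata2, which was 0.59 without mesenchyme replicate 1 and turned to -0.082 with median centring, -0.49 without mesenchyme replicate 2, -0.087 without urothelium replicate 1, -0.097 without urothelium replicate 5 and -0.12 with the replicate number as a block. The number of the genes called higher in mesenchyme was 18, and 14 to 27 under the other offset, normalization, filter, probe set, variance and weight settings (14 of 19 tested at the 60th percentile), and 11 to 25 when 1 array was left out, and 0 were called lower under any of them. Calls of all genes numbered 820 (553 higher in mesenchyme), 5109 (2511) with array quality weights, whose estimate stopped early, and 142 to 1975 (115 to 1110) with 1 array left out. The further neuron genes called higher numbered 19, 40 with array weights and 7 to 30 with 1 array left out. Over the 30 genes the median difference was 3.65, 2.79 with an offset of 64, 4.33 with array weights and 3.23 to 3.73 with 1 array left out. The median of all genes was -0.23 with median centring, against -0.12. Titles share the numbers 1 and 2 between layers, but no label says that they mark the same embryo, so the numbers are not taken as pairs. The deviations of same-numbered arrays from their layer means correlated at -0.05 and -0.02. Mesenchyme 1, which stood apart, weighs on the mesenchymal mean, so these values cannot tell whether the arrays are paired. With the replicate block, which leaves 1 residual degree of freedom, limma called 0 of these genes, 0 further neuron genes and 0 of all genes (24, 25 and 1460 at an unadjusted p under 0.05), the median being 3.39. Without detection calls, the urothelial signals below the filter (96.3 units) have no stated floor.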
